A study of Mus musculus with 2 samples.

Results

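The genes described here encode 9 surface antigens by which haematopoietic stem and progenitor cells are recognised and sorted: Cd34, Prom1, Cd27, Procr, Cd44, Spn, Cd24a, Cd9 and Pecam1. They were taken by symbol from a deposited table of 23235 gene names, and each of the 9 symbols had 1 row. RNA sequencing had been done on lineage-depleted bone marrow cells of C57B6 mice, labelled as hematopoietic progenitor cells, that were transformed by a pair of MIGR1 retroviruses. The first virus carried HA-tagged Hoxa9 fused to ER, a hormone-binding domain that keeps the fusion in the nucleus only while 4-hydroxytamoxifen (4OHT) is present, and Flag-tagged Meis1, a partner of Hoxa9, was on the second. After transformation under IL3 and 100 nM 4OHT, the cells were washed and kept for 72 h in 100 nM 4OHT (the group 4OHT) or in its solvent ethanol (the group EtOH). Cells of both groups therefore carried both viruses and had been transformed under 4OHT, and per the labels the EtOH group had lost nuclear Hoxa9-ER. The comparison asks how the genes of these antigens change when Hoxa9 activity is withdrawn from transformed progenitors.

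Surface antigens of blood cells change as a stem cell gives rise to progenitors and these to mature cells, so that antibodies against a few of them separate the stages. CD34, CD133 (Prom1), CD27 and the endothelial protein C receptor (Procr) are used to mark stem or early progenitor cells, whereas CD44, CD43 (Spn), CD24 and CD9 are also present on many maturing leukocytes. Several are heavily glycosylated mucin-like proteins, others are adhesion receptors, signalling receptors or organisers of the plasma membrane. RNA levels do not show how much protein was at the cell surface.

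The 2 samples each stood for 2 biological replicates, and the table gave 1 FPKM value per gene and condition (mapped fragments scaled to transcript length and library size), so the values have no replicate error. Changes are log2((FPKM EtOH + 1)/(FPKM 4OHT + 1)), in which a positive value is higher in EtOH and the change of low genes is understated, and folds are plain FPKM ratios. "Rose" and "fell" are used only of genes that the authors' deposited table calls at q of 0.05 or less, since with 1 value per condition no test of another kind was possible. Low FPKM values lay in steps, which put 1 FPKM of a 1 kb transcript at about 45.4 fragments for 4OHT and about 42.4 for EtOH. Hoxa9 and Meis1 RNA, to which the viruses contribute, went from 476 to 892 and from 242 to 418 FPKM, which does not show where the fusion protein was. When EtOH was scaled to the same FPKM sum as 4OHT, the median change of all genes of at least 1 FPKM moved by -0.10, and all changes below are to be read against that shift.

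The antigen genes did not move as a group. Prom1, Cd9, Cd44 and Spn rose on withdrawal of 4OHT, Cd34 and Cd27 fell, and Cd24a, Pecam1 and Procr were not called. All 9 genes were tested, and 4 were called higher and 2 lower, where among the 11865 genes tested by the authors 12.0% were called higher and 10.5% lower. At a q-value of at most 0.01 the counts were 3 and 1, without Spn and Cd27, beside 9.41% and 6.68% of all tested genes. The authors' second call, which adds a ratio of at least 1.5, left 4 and 2, beside 9.89% and 7.23%. Of the 9, 8 reached 1 FPKM in either condition, with a median change of 0.45, while the median of all 11022 such genes was -0.06 with quartiles of -0.25 and 0.18. A change of at least 1 on the log2 scale was seen in 5 of the 9 genes and in 7.49% of the 11022 genes.

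**Figure D1:**
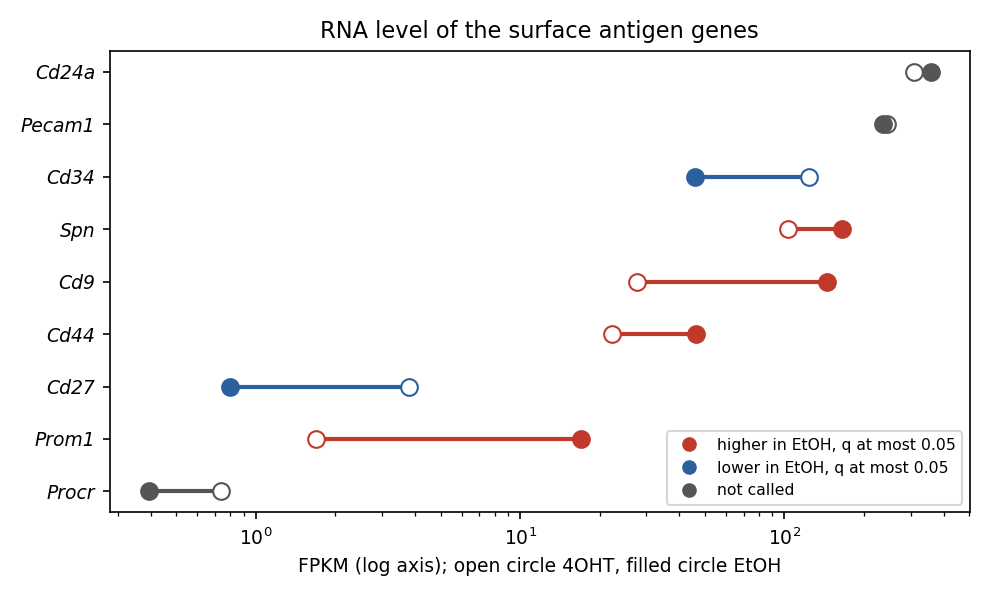
FPKM of each antigen gene in 4OHT (open circle) and EtOH (filled circle) on a log axis, ordered by the level in 4OHT, with 1 deposited value per condition and no error bar. Prom1 spans 1.69 to 17.0 FPKM, Cd34 and Cd27 move to the left, and the Pecam1 circles at 244 and 236 FPKM nearly coincide.

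The order of the levels changed with the treatment. In 4OHT the order from the highest was Cd24a, Pecam1, Cd34, Spn, Cd9, Cd44, Cd27, Prom1 and Procr. Cd24a and Pecam1 kept the first and second place in EtOH, while Cd34 went from the third to the sixth place, behind Spn, Cd9 and Cd44. The ratio of Cd34 to Cd9, which does not depend on the scaling between libraries, was 4.47 in 4OHT and 0.315 in EtOH. Cd34 and Cd44 differed 5.58-fold in 4OHT and had a ratio of 0.988 in EtOH. At the low end, the ratio of Cd27 to Prom1 went from 2.23 to 0.0468. With 1 value per condition, it cannot be said which neighbours in these orders differ beyond their spread.

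**Figure D2:**
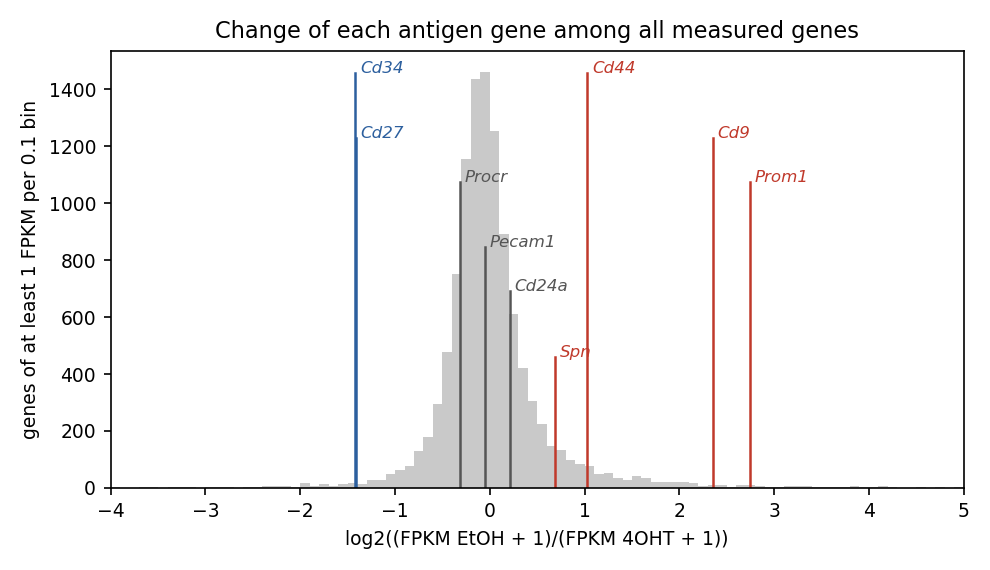
Histogram of the log2 change of all 11022 genes that reached 1 FPKM, in bins of 0.1, with a line at the change of each antigen gene (red higher, blue lower, grey not called; the height of a line only separates the names). The axis runs from -4 to 5, beyond which lie 23 and 25 genes, and Procr, which is marked, was below 1 FPKM in both conditions. Prom1 and Cd9 lie in the right tail at 2.74 and 2.35, and Cd34 and Cd27 lie together at -1.42 and -1.41.

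The start regions of the genes with the largest changes in either direction are shown because these genes carry the contrast between falling and rising antigens. A RefSeq start region was found for 7 of the 9 genes. The 250 bases before the start farthest upstream are printed on GRCm38.p6, another build than the mm9 of the deposited table, and capitals mark matches to 6 short motifs that were searched on both strands.
Cd34, chr1:194938571-194938820, plus strand: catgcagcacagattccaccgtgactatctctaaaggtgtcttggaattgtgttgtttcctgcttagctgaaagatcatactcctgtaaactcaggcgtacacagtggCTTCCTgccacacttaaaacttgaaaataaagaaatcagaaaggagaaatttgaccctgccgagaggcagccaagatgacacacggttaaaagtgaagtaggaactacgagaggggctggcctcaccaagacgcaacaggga
Cd27, chr6:125237028-125237277, minus strand: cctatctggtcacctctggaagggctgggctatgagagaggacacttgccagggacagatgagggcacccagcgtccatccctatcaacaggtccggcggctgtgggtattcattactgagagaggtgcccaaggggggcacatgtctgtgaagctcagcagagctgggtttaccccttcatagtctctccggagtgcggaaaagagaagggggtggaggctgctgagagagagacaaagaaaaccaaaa
Prom1, chr5:44101737-44101986, minus strand: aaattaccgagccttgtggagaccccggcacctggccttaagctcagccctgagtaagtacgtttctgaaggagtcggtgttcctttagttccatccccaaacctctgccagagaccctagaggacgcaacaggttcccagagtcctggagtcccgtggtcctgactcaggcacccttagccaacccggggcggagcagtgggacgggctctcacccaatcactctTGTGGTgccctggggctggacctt
Cd9, chr6:125494761-125495010, minus strand: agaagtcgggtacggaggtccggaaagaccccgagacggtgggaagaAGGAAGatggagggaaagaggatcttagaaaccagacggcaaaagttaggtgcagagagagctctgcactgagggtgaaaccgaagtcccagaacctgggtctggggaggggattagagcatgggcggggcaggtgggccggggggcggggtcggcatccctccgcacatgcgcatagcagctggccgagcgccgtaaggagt
The capitals are the ETS motif AGGAAG, or CTTCCT on the other strand, in Cd34 and Cd9, and the RUNX motif TGTGGT in Prom1. Of 32851 start regions of the same length, 29.5% held AGGAAG and 14.0% held TGTGGT. No letters of a HOX-PBX motif (TGATTTAT, in 0.837% of regions), a MEIS motif (TGACAG, in 15.9%), a C/EBP motif (TTGCNNAA, in 9.56%) or a GATA motif (AGATAA, in 9.99%) were in these 4 windows. The Cd9 region held 16 CpG pairs, against 9 in Prom1, 6 in Cd34 and 5 in Cd27, and the median of all regions was 6. No binding was measured in these data, and a match is a description of letters only.

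Among the sialomucins, long surface proteins covered with O-linked glycans, Cd34 and Spn moved in opposite directions. Cd34, on chromosome 1 at 196765015 to 196803153 (mm9), encodes the antigen that names the CD34+ progenitor fraction. It fell from 124 FPKM in 4OHT to 45.8 in EtOH (log2 change -1.42, 2.71-fold lower), and the authors' deposited table gives q = 7.4e-15. By size of fall its rank was 143 of 11022 genes, and in EtOH the level of Cd34 was above that of 83.3% of these genes. Spn, on chromosome 7 at 134276978 to 134281331, encodes CD43, an abundant sialomucin of leukocytes. It rose from 103 to 166 FPKM (log2 change 0.69, 1.61-fold higher), and the authors' deposited table gives q = 0.0239. Spn thus exceeded Cd34 by 3.62 times in EtOH, while in 4OHT Cd34 was the higher by 1.21 times.

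The locus of Cd34 is shared in the table by Gm16897, at 2.89 and 1.18 FPKM, which was not called. The strand setting of the counting is not given in the sources used here, so fragments of the Cd34 and Gm16897 rows cannot be told apart with certainty, but Gm16897 was low beside Cd34. Of 24 other sialomucins, selectins and O-glycan enzymes of at least 1 FPKM 2 rose, 5 fell and 17 were not called, with a median of -0.19, where 12.0% of all genes of at least 1 FPKM rose and 10.6% fell. Podxl, a relative of Cd34, fell from 7.16 to 4.48 FPKM, and it was named after its values were seen. Galnt2, Galnt3 and Galnt12, enzymes that add the first sugar of O-glycans, fell from 68.6 to 31.7, from 16.9 to 9.24 and from 8.01 to 4.66 FPKM. St3gal2, a sialyltransferase, fell from 16.7 to 9.48 FPKM.

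Cd24a was the most abundant of the 9 genes in both conditions and was not called. It encodes a short mucin-like protein held in the membrane by a lipid (GPI) anchor and lies on chromosome 10 at 43298975 to 43304071 (mm9). Its level was 309 FPKM in 4OHT and 357 in EtOH, a log2 change of 0.21, and the authors' deposited table gives q = 0.361. Its change was 0.092 when both conditions were given the same FPKM sum. Another gene, Gm6212, shares 2.75% of the 50-base words of its transcripts.

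Of the adhesion receptors, Cd44 rose and Pecam1 was not called. Cd44, the main receptor for the matrix sugar hyaluronan, lies on chromosome 2 at 102651300 to 102741822 (mm9). It rose from 22.2 to 46.3 FPKM (log2 change 1.03, 2.09-fold higher), and the authors' deposited table gives q = 3.98e-11. Cd44 is known for many splice forms, and the deposited value is for the gene as a whole. Pecam1, on chromosome 11 at 106515532 to 106576595, encodes the immunoglobulin-like adhesion molecule CD31. Its levels of 244 and 236 FPKM gave a log2 change of -0.05, and the authors' deposited table gives q = 0.914. Pecam1 was above 97.1% of the genes in 4OHT and 96.8% in EtOH.

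Among genes of hyaluronan, of other Cd44 ligands and of the proteins that link Cd44 to actin, 3 of 16 measured members rose, 1 fell and 12 were not called, with a median of 0.16. These shares are near the 12.0% and 10.6% of all measured genes. Spp1, which encodes the Cd44 ligand osteopontin, rose from 60.2 to 669 FPKM. Cd74, a chain that pairs with Cd44 in a cytokine receptor, rose from 0.690 to 5.12 FPKM and the hyaluronan-binding proteoglycan Vcan from 0.457 to 1.54 FPKM. The protease Adam17 fell from 41.6 to 26.3 FPKM. The hyaluronan synthases Has1, Has2 and Has3 were at or under 0.0826 FPKM in both conditions, and they were named after their values were seen, as were the membrane linkers Ezr, Rdx and Msn, which were not called.

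Most measured genes of ligands and signal partners of Pecam1 and Cd24 were called. Of 17 measured members 10 rose, 2 fell and 5 were not called, with a median of 0.98, against 12.0% and 10.6% of all genes of at least 1 FPKM. Of those that rose, Cd177, Fgr, Siglecg and Siglece reached 1 FPKM only in EtOH, and Siglece was named after its values were seen. Cd177, a neutrophil surface protein that binds Pecam1, rose from 0.461 to 44.3 FPKM. The Src family kinase Fgr rose from 0.239 to 3.92 FPKM, and the Siglec gene Cd33 from 22.5 to 92.7 FPKM. The members that fell were Itgav, the alpha subunit of an integrin that can bind Pecam1, from 42.9 to 10.1 FPKM, and the kinase Fyn, from 8.92 to 4.72 FPKM, both named after their values were seen. Also named after their values were seen, Cd38, which binds Pecam1, rose from 1.76 to 4.69 FPKM. Ptpn6, a phosphatase recruited by Pecam1, rose from 43.03 to 85.9 FPKM, and Siglecg, a receptor for CD24, from 0.611 to 3.85 FPKM.

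Both signalling receptors were low, and Cd27 fell. Cd27 encodes a receptor of the tumour necrosis factor receptor family that binds CD70 and is used to split early progenitors, and it lies on chromosome 6 at 125174230 to 125189952 (mm9). Its level went from 3.78 to 0.797 FPKM (log2 change -1.41, 4.74-fold lower), and the authors' deposited table gives q = 0.0323. On transcripts of 588 to 1559 bases these levels would rest on about 101 to 267 fragments in 4OHT and 20 to 53 in EtOH. The same locus entry holds Tapbpl, at 17.6 and 16.2 FPKM, and E130112N10Rik, at 1.08 and 0.657 FPKM, neither of which was called. Reads where these genes overlap could have been assigned to either, and Tapbpl was the more abundant of them.

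Procr encodes a receptor for protein C that is used to sort long-term stem cells. It lies on chromosome 2 at 155576953 to 155581214 (mm9), and its level was 0.738 FPKM in 4OHT and 0.393 in EtOH, below 1 in both. The log2 change of -0.32 was not called, and the authors' deposited table gives q = 0.215, and about 17 to 53 and 8 to 27 fragments would lie behind the values. A q-value above the threshold does not show that the level of Procr was the same in both conditions.

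The CD27 ligand gene Cd70 was listed at 0 in both conditions, and it was named after its values were seen. In the list of Cd70 and the signalling genes below Cd27, 4 of 14 measured members rose, 0 fell and 10 were not called, with a median of 0.15, beside 12.0% and 10.6% of all measured genes. Those that rose were the adaptors Traf1, from 0.829 to 2.62 FPKM, and Traf3, from 7.87 to 13.1 FPKM, the ubiquitin ligase Birc3, from 9.31 to 13.1 FPKM, and the kinase Map3k14, from 1.53 to 2.40 FPKM. In the list of the protein C pathway and its protease-activated receptors 4 of 10 measured members rose, 2 fell and 4 were not called, with a median of 0.25, beside the same 12.0% and 10.6%. With the authors' second call 2 of them were higher and 2 lower, beside 9.89% and 7.23% of all tested genes. Itgam, an integrin that can bind the protein C receptor, rose from 16.2 to 112 FPKM, and the clotting factor gene F5 from 0.640 to 2.56 FPKM. The receptor gene F2rl3 fell from 6.20 to 2.93 FPKM and Tfpi, a clotting inhibitor, from 28.6 to 17.5 FPKM. Proc, the gene of protein C itself, was listed at 0 in both conditions and was named after its values were seen.

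Prom1 and Cd9, which encode organisers of the plasma membrane, had the largest rises of the 9 genes. Prom1 encodes CD133, a cholesterol-binding protein of membrane protrusions, and lies on chromosome 5 at 44384861 to 44492975 (mm9). It rose from 1.69 to 17.0 FPKM (log2 change 2.74, 10.1-fold higher), and the authors' deposited table lists its q-value at 0. It had rank 106 of 11022 genes by size of rise, and its level passed from above 9.06% of these genes to above 59.5%. On transcripts of 595 to 4089 bases Prom1 would rest on about 46 to 314 fragments in 4OHT and 430 to 2955 in EtOH. Its paralog Prom2, named after its values were seen, was listed at 0 in both conditions.

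Cd9 encodes a tetraspanin, a small protein with several membrane passes that gathers integrins and other proteins into patches. It lies on chromosome 6 at 125410284 to 125444773 (mm9) and rose from 27.7 to 145 FPKM (log2 change 2.35, 5.25-fold higher). The authors' deposited table lists its q-value at 0, and its rank by size of rise was 137. Other genes share 5.67% of the 50-base words of its transcripts. Of the other tetraspanins and Cd9 partners, 4 of 17 measured members rose, 2 fell and 11 were not called, where 12.0% of all measured genes rose and 10.6% fell. Tspan2 rose from 3.33 to 9.58 FPKM, Cd53 from 175 to 302 FPKM and Cd37 from 83.9 to 139 FPKM, while Tspan4 fell from 46.1 to 25.2 FPKM. Cd81, the tetraspanin most like Cd9, was not called at 97.9 and 92.5 FPKM, and Cd63 rose from 739 to 1185 FPKM, both named after their values were seen.

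Some genes beside the antigen genes were called as well. The nearest genes of at least 1 FPKM on either side of the 9 antigen genes gave 18 neighbours. Of all 18, 6 rose, 4 fell and 8 were not called, beside 12.0% and 10.6% of all measured genes. For the 6 called antigen genes there were 12 neighbours. Of these 4 were called in the same direction as the antigen gene, 2 in the opposite direction and 6 were not called, where 22.6% of all measured genes were called in either direction. The 4 in the same direction all rose, where 12.0% of all measured genes rose. Among them Qprt and Vwf reached 1 FPKM only in EtOH, so they could be called higher but not lower. Beside Prom1, Cd38 rose from 1.76 to 4.69 FPKM, and Tapt1 on the other side, at 17.4 and 18.1 FPKM, was not called. Beside Cd34, G0s2, at a distance of 1666 kb, rose from 1.51 to 9.38 FPKM, and Cr1l, at 42.0 and 38.9 FPKM, was not called. Beside Cd44, Trim44 fell from 18.6 to 13.7 FPKM, and Pdhx, at 6.95 and 5.93 FPKM, was not called. Beside Spn, Qprt rose from 0.786 to 1.75 FPKM, and Cd2bp2, at 24.3 and 21.9 FPKM, was not called. Neighbours of the antigen genes that were not called also changed. Edem2 beside Procr, Qrsl1 beside Cd24a and Gm885 beside Pecam1 fell, and Tex2 beside Pecam1 rose. BC029722 beside Procr and 1700021F05Rik beside Cd24a were not called.

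Cd27 and Cd9 lie 220 kb apart on chromosome 6 and went in opposite directions. From Cd27 to Vwf, which lies 58.2 kb beyond Cd9, the table had 11 rows, of which 8 reached 1 FPKM. Cd27 was the member of this stretch that fell. Vamp1, just before Cd27, and Ltbr, a receptor of the tumour necrosis factor family after it, were not called, at 2.81 and 3.18 FPKM and at 15.2 and 13.1 FPKM. From there on all 4 measured genes rose, beside 12.0% of all genes of at least 1 FPKM. Of them Scnn1a and Vwf reached 1 FPKM only in EtOH. The sodium channel subunit gene Scnn1a rose from 0.0334 to 2.20 FPKM and Tnfrsf1a, a tumour necrosis factor receptor, from 25.1 to 42.3 FPKM. Cd9 followed with 27.7 and 145 FPKM, and Vwf, the gene of von Willebrand factor, rose from 0.229 to 1.43 FPKM. This stretch was chosen after its values were seen and ends at a gene that rose, so the run of rising genes depends on that choice.

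**Figure D3:**
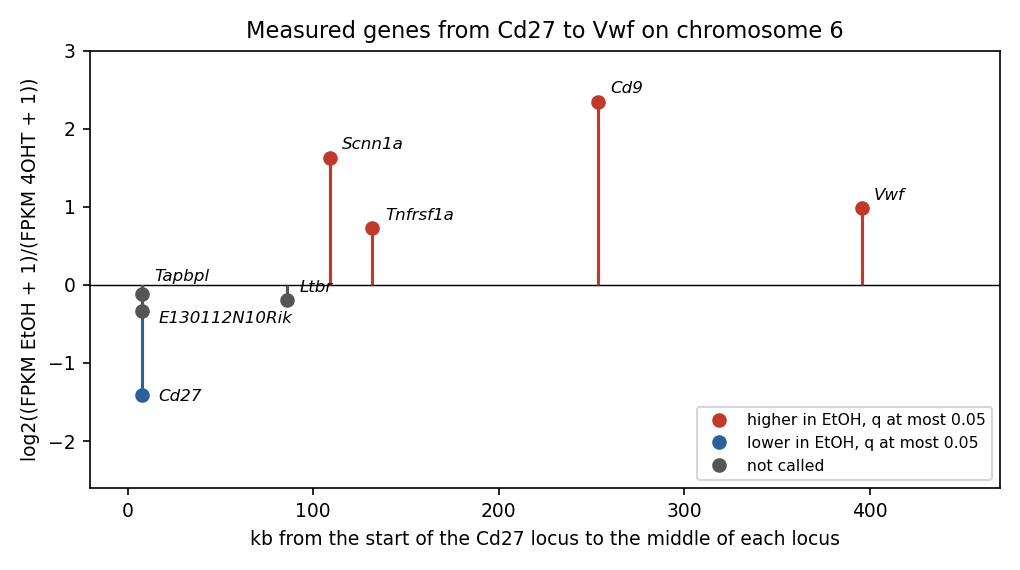
log2 change of the 8 genes of at least 1 FPKM from Cd27 to Vwf, plotted at the distance in kb from the start of the Cd27 locus to the middle of each locus (red higher, blue lower, grey not called). Cd27, Tapbpl and E130112N10Rik share a locus entry at the left, and the 4 genes at the right, Scnn1a, Tnfrsf1a, Cd9 and Vwf, all lie above 0. Scnn1a and Vwf reached 1 FPKM in EtOH only, and Cd27 and E130112N10Rik in 4OHT only.

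Other surface antigens of stem and progenitor cells were also called in both directions. Of 37 such genes 30 reached 1 FPKM, of which 12 rose, 9 fell and 9 were not called, with a median of -0.02, beside 12.0% higher and 10.6% lower among all measured genes. Il7r, Csf1r and Vcam1, which rose, reached 1 FPKM only in EtOH, and Flt3, which fell, only in 4OHT. Il7r, Csf1r and Vcam1 were named after their values were seen. The receptor kinase gene Flt3 fell from 14.5 to 0.239 FPKM and Cd48, a ligand of the immunoglobulin family, from 166 to 57.8 FPKM. Both went the same way as Cd34 and Cd27, and the opposite way to Prom1, which is also used to mark stem or early progenitor cells. Alcam, an adhesion molecule, rose from 1.66 to 7.46 FPKM, and Cd33 from 22.5 to 92.7 FPKM. Named after its values were seen, Gpr56, an adhesion receptor of stem cells, fell from 154 to 54.5 FPKM, a change of -1.48 that is close to the -1.42 of Cd34.

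**Figure D4:**
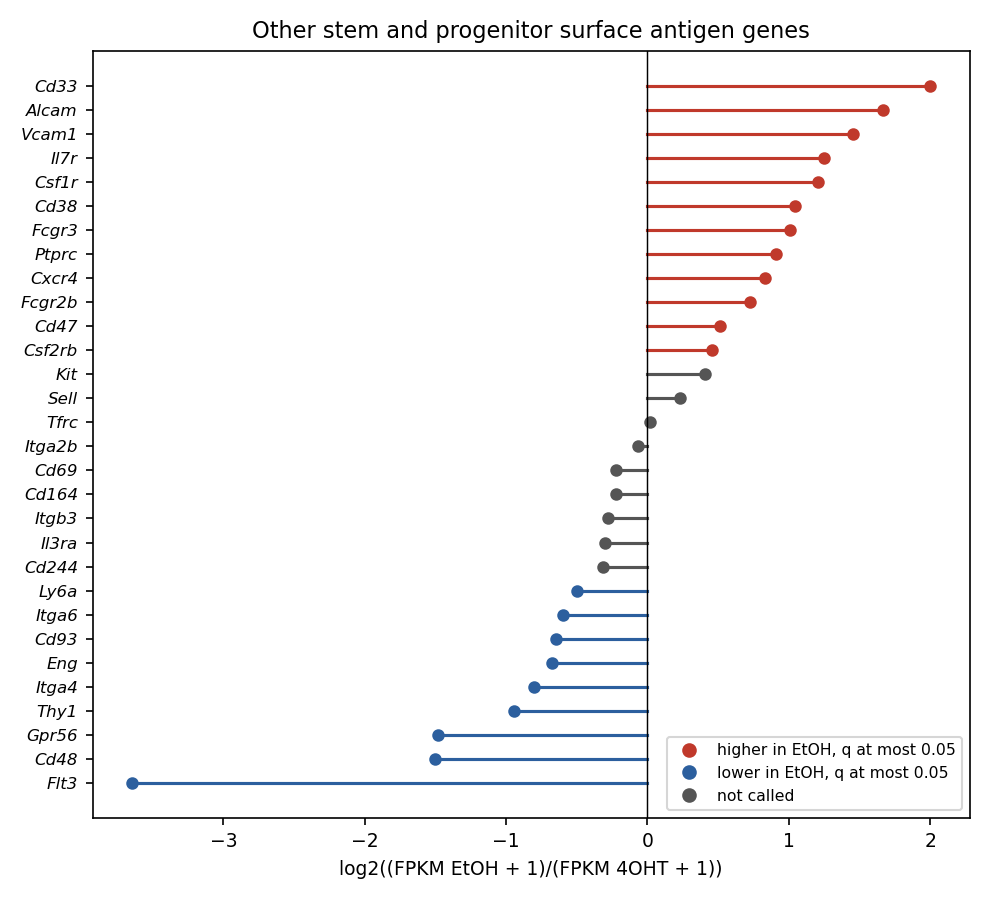
log2 change of the 30 other stem and progenitor surface antigen genes that reached 1 FPKM, ordered by change (red higher, blue lower, grey not called). Flt3 lies lowest at -3.64 and Cd33 highest at 2.00. Il7r, Csf1r and Vcam1 reached 1 FPKM in EtOH only, and Flt3 in 4OHT only.

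Most markers of maturing granulocytes rose, whereas the antigen genes went in both directions. The counts below stand beside 12.0% higher and 10.6% lower among all genes of at least 1 FPKM. Of 12 neutrophil markers of at least 1 FPKM 12 rose, and their summed level over all 13 was 167 FPKM in 4OHT and 16430 in EtOH. Of 8 eosinophil markers 8 rose, with sums of 143 and 4774 FPKM. Of 11 basophil and mast cell markers 10 rose and 0 fell, with sums of 1389 and 5373 FPKM. Of 9 monocyte and macrophage markers 6 rose and 1 fell, with sums of 3369 and 3656 FPKM. Nearly all of these sums was Ly6c2, at 3104 and 3463 FPKM, which was not called. Emr1 fell from 202 to 102 FPKM, and Cd68 was not called at 41.8 and 30.6 FPKM. Ly6c2, Emr1 and Cd68 were named after their values were seen. Several of the markers that rose reached 1 FPKM only in EtOH, and such genes could be called higher but not lower. In the neutrophil list these were Ltf, Camp, Fcnb and Retnlg, and in the eosinophil list Ear1, Ccr3 and Alox15. Others were Fcer1a in the basophil list and Csf1r, Mrc1, Vcam1 and C1qb in the monocyte list. These markers were named after their values were seen. Cd9, Cd44 and Spn, which rose, and Cd24a, which was not called at 309 and 357 FPKM, are also present on maturing leukocytes. The part of such cells in the values of the antigen genes was not tested. In bulk RNA fewer or more cells of a type and less or more RNA per cell cannot be told apart.

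Several other cell types that carry these antigens had markers listed at 0 in both conditions beside others that reached 1 FPKM. For Pecam1 and Cd34, which endothelial cells express, 3 of 15 endothelial markers reached 1 FPKM, with sums of 22.5 and 24.6 FPKM. Most of that sum was Egfl7, at 18.8 and 21.8 FPKM, which was not called, while Plvap fell from 2.48 to 0.458 FPKM and Vwf rose from 0.229 to 1.43 FPKM. Of the other endothelial markers, Tek, Emcn, Robo4, Sox17 and Cldn5 were listed at 0 in both conditions. For Cd27, which lymphocytes express, 3 of 14 T cell markers reached 1 FPKM, with sums of 6.64 and 4.10 FPKM. Of these 0 rose and 2 fell, beside 12.0% and 10.6% of all measured genes. The kinase gene Lck fell from 3.55 to 1.51 FPKM and the transcription factor gene Tcf7 from 1.67 to 0.732 FPKM. Tcf7 reached 1 FPKM only in 4OHT. The part of T cells in the fall of Cd27 was not tested. Cd247, the other measured T cell marker, was not called at 1.30 and 1.69 FPKM. Cd3e, Cd3g, Cd4, Cd8b1, Cd2 and Bcl11b were listed at 0 in both conditions. Of 14 B cell markers 1 reached 1 FPKM, with sums of 1.73 and 2.78 FPKM, and Pax5, Ebf1, Ms4a1 and Rag1 were listed at 0 in both. For Cd9, which platelets carry, 7 of 14 megakaryocyte markers reached 1 FPKM, of which 1 rose and 2 fell beside 12.0% and 10.6% of all measured genes, with sums of 126 and 112 FPKM, of which Itga2b gave 79.7 and 76.0. Of these megakaryocyte markers Pf4 fell from 19.1 to 10.2 FPKM and Gp5 from 2.71 to 0.903 FPKM, and Vwf was the member that rose. Itgb3 was not called at 19.6 and 16.0 FPKM, and Treml1 was listed at 0 in both conditions. Egfl7, Cd247, Itga2b, Itgb3 and the markers listed at 0 were named after their values were seen.

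For Cd24a, which red cell precursors also express, 4 of 11 erythroid markers reached 1 FPKM. Of these 0 rose and 3 fell, beside 12.0% and 10.6% of all measured genes. The sums were 225 and 95.2 FPKM, and most of them was the beta-globin entry, which fell from 197 to 78.7 FPKM. The alpha-globin entry was at 0.0529 and 0.406 FPKM and was not tested by the authors. Slc4a1 was listed at 0 in both conditions, and Alas2, Rhag, Ermap and Car1 were below 1 FPKM in both. The alpha-globin entry and these other low markers were named after their values were seen. The erythroid marker Klf1, below 1 FPKM in both conditions and named after its values were seen, rose from 0.310 to 0.935 FPKM. For Cd44, which stromal cells express, 2 of 12 stromal markers reached 1 FPKM and both fell, beside the same 10.6%, with sums of 426 and 219 FPKM. Nearly all of that sum was Thy1, which T cells and some progenitors also express, at 418 and 217 FPKM. The other stromal marker that fell was Pdgfrb, from 7.99 to 1.74 FPKM. Col3a1, Pdgfra, Cxcl12, Dcn, Lum and Postn, named after their values were seen, were listed at 0 in both. Of 13 dendritic cell markers 3 reached 1 FPKM, with sums of 98.3 and 79.9 FPKM, and Flt3 was the member that fell. Itgax, below 1 FPKM in both conditions and named after its values were seen, rose from 0.105 to 0.522 FPKM.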

How the data were processed

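Per the labels' protocols, column-purified, DNase-treated RNA went into TruSeq RNA libraries. Cuffdiff 2.0.2, Bowtie2 2.0.0.7, CASAVA 1.8.2 and the mm9 build stand in the submitters' processing notes. Annotation, strand setting and library scaling are not given in the sources used. Per the file headers, the deposited table held 1 FPKM value per gene and condition, the authors' p-value and q-value, and a fold (EtOH divided by 4OHT) that the authors' second call required to be at least 1.5 in either direction. The authors tested 11865 of 23235 rows. How the 2 biological replicates entered each FPKM value and test is not known, and nothing says that they came from separate animals. FPKM is relative to the whole library, so that other values drop when abundant RNAs rise.

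Changes and medians were computed with pandas 2.3.3 on genes that reached 1 FPKM in 4OHT or EtOH, with a pseudocount of 1 FPKM. This filter admits genes that reached 1 FPKM in only 1 condition, so the list counts include such genes, as do the shares over all genes. The antigen genes and the 19 lists (324 entries, 1 unmatched) were chosen with earlier results of these data known. Named were the 9 genes, per list the called members with the largest changes, at most 4, and the neighbours; for any other gene the text says that it was picked after seeing values. Some genes that this rule names are not reported here. With 2 conditions no search for genes of like pattern was made. Alternatives were a q-value of at most 0.01, the second call, pseudocounts of 0.1 and 5, no filter, scaling to equal FPKM sums and centring on genes of at least 5 FPKM. FPKM hides read totals. FPKM times length of genes with 1 transcript of at least 800 bases in GENCODE M21 clustered at whole steps: within 0.25 steps, 162 genes lay near 1 step, 22 near 1.5 and 60 near 2 in 4OHT, against 157, 21 and 62 in EtOH. The step, taken as 1 fragment inside a fixed window, gave the fragment numbers, and no interval is given. The change and list steps were tested on simulated data. Loci are on mm9, with starts counted from 1.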

Additional observations from a re-analysis of the deposited data

How the results depend on the processing

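At a q-value of at most 0.01 the antigen genes called lower numbered 1 in place of 2, since Cd27 no longer passed, and those called higher 3 in place of 4, without Spn. The authors' second call left both counts as they were. In the list of the protein C pathway 2 genes in place of 4 were then higher, beside 9.89% of all tested genes. The median change of the antigen genes was 0.21 without the filter on low values, which adds Procr. With changes centred on genes of at least 5 FPKM, Pecam1 turned to 0.014 and the median of the other progenitor antigens to 0.037. With equal FPKM sums in both conditions the tetraspanin median turned to -0.088. Without the filter the erythroid median turned to 0.034 and the dendritic cell median to 0.016. Scaling and centring of the list medians were added after the data were seen. No other antigen gene or list median changed sign under these alternatives, but 35 values of list medians moved by over 1.5 times or to 0. The 0.98 of the Pecam1 and Cd24 partners was 0.52 with a pseudocount of 5. The 0.16 of the hyaluronan list was 0.073 with a pseudocount of 5, 0.045 with equal FPKM sums and 0.015 without the filter. The 0.33 of the paralogs was 0.10 with a pseudocount of 5, 0.57 with 0.1 and 0.080 without the filter. With equal sums the medians were -0.29 for the O-glycan list, 0.15 for the protein C list and 0.039 for Cd27 signalling, and without the filter the O-glycan median was -0.057. For these turns the cause was not tested. Among low genes the pseudocount sets the size of the change: with 5 FPKM the change of Prom1 was 1.72 and that of Cd27 was -0.60. No paired analysis was possible because each condition had 1 value in which the replicates were already combined, and for the same reason no replicate could be left out. Procr and Cd27 have the lowest estimated fragment numbers in EtOH, and the effect of depth on their calls was not tested.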

Other observations

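Besides Procr, some other antigens used to define long-term stem cells were also below 1 FPKM in both conditions, while other stem and progenitor antigens were expressed. Slamf1, the gene of CD150, was at 0.188 FPKM in 4OHT and 0.0163 in EtOH. Tek was listed at 0 in both, and Esam was at 0.0463 and 0.048 FPKM. Kit was at 7.39 and 10.1 FPKM and was not called, while Ly6a, which encodes Sca-1, fell from 42.4 to 29.8 FPKM. In the same list Thy1 fell from 418 to 217 FPKM, Itga6 from 16.9 to 10.8 FPKM and Eng from 4.04 to 2.16 FPKM. Of its 30 measured antigens 12 rose and 9 fell, beside 12.0% and 10.6% of all measured genes. Among those called, Il7r, Csf1r and Vcam1 reached 1 FPKM only in EtOH and Flt3 only in 4OHT. These antigens were chosen after their values were seen.

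Among paralogs of the antigen genes, 3 of 6 measured members rose and 2 fell, beside 12.0% and 10.6% of all measured genes, with a median of 0.33. Tnfrsf9 and Tnfrsf4, receptors of the same family as Cd27, rose from 87.1 to 245 and from 0.856 to 2.12 FPKM, the opposite of Cd27. Cd1d1, which like Procr has an MHC class I-like fold, fell from 10.1 to 5.03 FPKM, and Tspan2 rose.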
